A study of Mus musculus with 24 samples.

Results

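The pancreas of mice that drank a middle dose of a berry phenolic extract was compared with that of mice that drank water, gene by gene. The comparison uses the 4 arrays titled 1X and the 4 arrays titled H2O, which are 8 of the 24 arrays of the series. The extract, called PAE, held the phenolic compounds of AFFB, an alcohol-free beverage fermented from 70% blackberry and 30% blueberry, and the dose 1X came to 9.0 mg per kg body weight per day. The labels tie the unit X to the dose of "ANC", which they do not spell out, in the beverage group.

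All mice were male C57BL/6J, an inbred strain that becomes obese on fat-rich food, bought at an age of 3 weeks and housed singly. Every group, water included, ate a standard diet for 2 weeks and then a diet of 60% fat, 21% carbohydrate and 18% protein, and the frozen pancreas was taken after 12 weeks of it. The other groups, used here only for contrasts with 1X or as side values, received AFFB at 8.4, PAE 0.1X at 1.1 or PAE 3X at 18.9 mg per kg per day, or, in their drinking water, 150 mg per L of sitagliptin, an inhibitor of dipeptidyl peptidase 4. The highest dose is 3X in the titles and 2X in the protocol, and is called 3X. Each group has 4 arrays from 12 mice, and nothing in the labels ties an array to a single mouse of its own, so the p-values measure only the spread between these samples, which may in part be technical.

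Most of the pancreas is acinar tissue, whose cells make digestive enzymes in an extensive endoplasmic reticulum (ER) and secrete them into ducts. Islets, which release insulin and glucagon, are a small part of the organ, and blood, fat, stroma and lymphoid tissue come along when it is dissected. Total RNA was measured on single-colour Illumina bead arrays, and all levels below are log2 of background-corrected, quantile-normalised intensity, so that a difference of 1 is a doubling. A probe was kept if its detection p, the authors' test of signal against negative controls, was under 0.05 on at least 4 of the 24 arrays. That left 15328 of 45281 probes, and 9164 genes among those with 1 gene symbol. The tissue label held: the 29 kept digestive enzyme genes averaged 13.65 to 13.87 on each of the 8 arrays, near the top of the scale.

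The arrays were not equally alike. PAE 1X array 2 had 1058 probes more than 1 log2 unit from the mean of the other 3 arrays of its group, 766 of them below it, whereas the other 7 arrays of the comparison had 39 to 264. It also lay farthest out of all 24 arrays on the first principal component, which held 28.4% of the variance. For several genes, probes of the same gene parted on that array. The 3 probes of Amy2a5, a pancreatic amylase, read 14.33, 11.92 and 8.41 there, while the water arrays stood between 13.93 and 14.37 on all of them. Furthermore, PAE 1X array 4 and water array 4 carried clock genes high, with Dbp at 11.43 and 11.02 against 5.70 to 8.41 on the other 6 arrays. Values without 1 or more of these 3 arrays are given beside several of the results below.

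**Figure D1:**
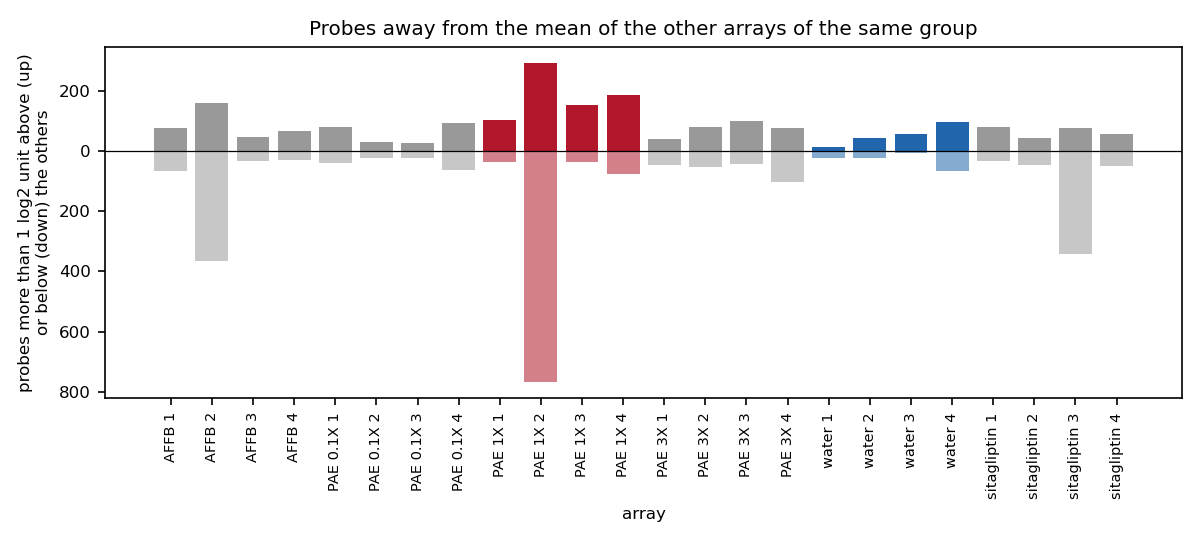
Number of probes more than 1 log2 unit above (upward bars) or below (downward bars) the mean of the other 3 arrays of the same group, for each of the 24 arrays, with PAE 1X in red and water in blue. PAE 1X array 2 has 292 probes above and 766 below, more in total than any other array.

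A single gene passed the test between PAE 1X and water. Reep6, a membrane protein of the REEP family that shapes and stabilises the ER, stood at 8.20, 8.91, 9.28 and 7.91 on PAE 1X arrays 1 to 4 and at 7.11, 6.49, 6.81 and 6.14 on water arrays 1 to 4. All 4 PAE 1X arrays lay above all 4 water arrays. The means were 8.58 ± 0.63 and 6.64 ± 0.42 (SD, n = 4 each). Reep6 thus rose by 1.94 on the log2 scale (SE 0.32), a 3.83-fold higher level, with an adjusted p of 0.039 in limma's moderated test, adjusted by the Benjamini-Hochberg method over all kept probes. It was the 1 probe of 15328 to pass, which is 0.00652%. Since whole tissue was measured, more cells of one type and more RNA per cell cannot be told apart, here and below.

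The Reep6 call is close to the threshold. Its difference was positive in every alternative that was run, from 1.40 to 2.18, but the adjusted p was above 0.05 without any 1 of 10 arrays. It came to 0.0587, 0.218 and 0.152 without PAE 1X array 1, 2 or 3, and to 0.133, 0.109 and 0.159 without water array 2, 3 or 4. It was 0.0604, 0.0562 and 0.062 without PAE 3X array 1, 2 or 3, and 0.0596 without AFFB array 4, arrays that enter only through the shared estimate of the spread. Without both PAE 1X array 4 and water array 4 it was 0.0476. Without these and PAE 1X array 2 the difference was 1.94 and the adjusted p 0.37.

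Mean Reep6 in the other groups was 7.82 at the dose 0.1X, 8.66 at 3X, 7.47 with AFFB and 6.86 with sitagliptin. Against the same water arrays PAE 3X differed by 2.03 (adjusted p 0.00993), PAE 0.1X by 1.19 (0.972), AFFB by 0.84 (0.919) and sitagliptin by 0.22 (1). PAE 1X itself differed from PAE 3X by -0.09 (95% interval -0.74 to 0.57), and from PAE 0.1X by 0.75 and AFFB by 1.10, with adjusted p of 0.9 and 0.708. None of these contrasts of PAE 1X with another dose or the beverage passed, and the array plot of the 6 groups shows the overlap.

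No other REEP or ER-shaping gene passed. Of 13 kept members of a list of 22, 5 had a positive and 8 a negative difference, with a median of -0.06 against 0.03 over all 9164 genes. When arrays were scaled to a common median, 10 were positive, as were 6917 of all 9164 genes. Reep5, the widely expressed tubule-shaping member, read 9.32, 8.55, 8.98 and 9.78 on the PAE 1X arrays and 9.90, 9.26, 9.20 and 10.13 on the water arrays, a difference of -0.46 (SE 0.27, adjusted p 0.789) with overlapping groups, and of -0.26 without array 2. Reep4 was detected on 2 PAE 1X arrays and no water array, at least 1.02-fold higher (adjusted p 0.798).

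Beyond Reep6, 997 probes had an unadjusted p under 0.05, 527 higher and 470 lower in PAE 1X, which is 6.5% of those tested. Counted by gene, with the brightest probe for each, 374 genes were higher at that level (4.08% of 9164) and 253 lower (2.76%). This balance depends on the scaling: with each array set only to a common median in place of quantile normalisation, 1032 genes were higher (11.3%) and 51 lower (0.557%), and the median over all genes was 0.16 rather than 0.03. Under that scaling 6917 of the 9164 genes had a positive difference. List counts and medians under it are to be read beside these values. Without PAE 1X array 2, 215 genes were higher (2.35%) and 154 lower (1.68%) at an unadjusted p under 0.05. The groups did not overlap for 221 higher genes (2.41%) and 150 lower genes (1.64%). The median standard error of a difference was 0.17, and 45 probes differed by more than 1 log2 unit. The genes described next are those of smallest p in each direction, provided that no PAE 1X array crossed to the other side of the mean of water. They were picked by that p, so that the separation of the groups in them is a description.

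Among the genes higher in PAE 1X, secretory and transport proteins came first after Reep6. Azgp1, a secreted zinc-binding glycoprotein known to mobilise fat, read 9.01, 9.43, 9.15 and 9.09 against 7.80, 8.38, 8.32 and 8.13 in water. The groups were clear of each other, and the difference was 1.01 (SE 0.18, adjusted p 0.0568). A dimmer second Azgp1 probe gave 0.33 (adjusted p 0.859), with PAE 1X array 2 at 4.62 and the other 3 between 6.08 and 6.71, all of them above the water range of 5.54 to 5.79. Azgp1 passed the threshold in 17 of the 45 settings run, the reported one included, and Reep6 in 27.

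Cadps2, which primes dense-core vesicles for release, stood at 8.22, 8.40, 7.75 and 7.98 in PAE 1X and at 7.40, 7.45, 7.08 and 7.2 in water. Every PAE 1X array exceeded every water array, by 0.81 on average (SE 0.16, adjusted p 0.112). Slc7a3, a plasma membrane carrier of arginine and lysine, read 8.82, 8.68, 8.81 and 8.55 against 8.07, 7.77, 8.10 and 7.48, again without overlap, for a difference of 0.86 (SE 0.18, adjusted p 0.12). A second Slc7a3 probe was detected on only 2 arrays of each group and differed by -0.08. Of 15 kept SLC7 transporters, Slc7a3 included, 7 had a positive and 8 a negative difference, with a median of 0. Under median scaling 12 were positive, as were 6917 of all 9164 genes.

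Slamf9, a receptor of the SLAM family found on myeloid cells, read 5.76, 6.96, 5.63 and 5.65 in PAE 1X and 4.86, 4.75, 5.06 and 4.85 in water, a difference of 1.12 (SE 0.25, adjusted p 0.145). Array 2 was the high one, and the other 3 also lay above all water arrays. Moxd1, related to the copper enzyme that makes noradrenaline, was detected on all 4 PAE 1X arrays and no water array. Where 1 group lacks detection on all its arrays, only a bound is given, from the brighter group's mean and, on each dim array, the higher of its own level and the lowest detected signal. On that basis Moxd1 was at least 1.25-fold higher (adjusted p 0.144).

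Mitochondrial genes also appeared on the higher side. They were Cox6a2, the heart and muscle form of a cytochrome c oxidase subunit (0.95, adjusted p 0.145), Fars2, the mitochondrial phenylalanine tRNA ligase (0.62, 0.162), and Mrpl33 of the mitochondrial ribosome (0.55, 0.378). Cox6a2 was detected on 1 water array only. The remaining higher genes were Ptges3l (0.71), Cd164l2 (0.76), Ndrg2 (0.93), Krt71, a hair follicle keratin (0.69), Thsd4 (0.79) and Tle6, a relative of the Groucho corepressors (0.73), with adjusted p from 0.144 to 0.378. Second probes of Ptges3l, Ndrg2 and Mrpl33 gave 0, 0.09 and 0.62 (adjusted p 0.997, 0.935 and 0.719). That of Thsd4 was detected on 3 PAE 1X arrays and no water array. Krt71 alone of the 15 overlapped between the groups.

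On the lower side a glycosylation enzyme led. Gcnt1, which starts the branching of mucin-type O-glycans, read 5.36, 5.48, 5.40 and 6.34 in PAE 1X against 7.09, 7.18, 6.95 and 7.03 in water. The water arrays were tight, with an SD of 0.10 (n = 4), and PAE 1X array 4 lay nearest to them. The difference was -1.42 (SE 0.26, adjusted p 0.0568), and a second probe, detected on 1 PAE 1X array and all water arrays, gave -1.08 (adjusted p 0.384). Of 17 kept O-glycan and mucin genes, Gcnt1 included, 10 had a positive and 7 a negative difference, with a median of 0.06.

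Cobl, an actin nucleator of brush borders and neurites, stood at 4.45, 4.77, 4.53 and 4.72 against 5.65, 5.58, 5.58 and 5.75, with a wide gap between the groups. It differed by -1.02 (SE 0.19, adjusted p 0.0713), and its other probe was detected on only 1 of the 8 arrays. Smim24, a small single-pass membrane protein, read 6.28, 6.70, 6.40 and 6.90 against 7.97, 7.59, 7.69 and 8.38, without overlap, a difference of -1.34 (SE 0.27, adjusted p 0.112). Of the 18 kept genes of actin nucleation and microvilli, Cobl and Smim24 included, 14 had a negative difference, with a median of -0.10. On PAE 1X array 3, 9 of the 18 were above their water mean and 9 below. Without PAE 1X array 2 the median was -0.03, and under median scaling 8 were negative and it was 0.05.

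Adh1 and Oxct1, single enzymes of alcohol and ketone use, followed. Adh1, the alcohol dehydrogenase that also oxidises retinol, read 6.42, 6.23, 6.12 and 7.05 in PAE 1X and 7.2, 7.51, 7.47 and 7.53 in water, and Adh1 on PAE 1X array 4 came close to the lowest water array. The difference was -0.97 (SE 0.20, adjusted p 0.112). A second Adh1 probe gave -0.86 (adjusted p 0.745), but PAE 1X array 2 was at 4.32 there and the other 3 at 5.43 to 6.51, overlapping the water range of 5.91 to 6.51. Oxct1, the mitochondrial transferase that lets tissues burn ketone bodies, read 7.06, 6.97, 7.11 and 7.60 against 7.99, 7.82, 7.80 and 8.29, without overlap. It differed by -0.79 (SE 0.16, adjusted p 0.12). The second Oxct1 probe gave -1.17 (adjusted p 0.658), with array 2 at 4.70, the other 3 at 6.42 to 7.02 and the water arrays at 7.21 to 7.70. Of 16 kept alcohol and aldehyde dehydrogenase genes, Adh1 included, 8 had a positive and 8 a negative difference (median -0.04). Under median scaling the counts were 12 and 4, where 6917 of all 9164 genes had a positive difference. Of 5 kept ketone genes, Oxct1 included, 4 were negative. Their median was -0.13, or 0 without PAE 1X array 2 and -0.02 under median scaling.

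Rprm, a mediator of cell cycle arrest downstream of the tumour suppressor p53, read 4.68, 4.93, 4.63 and 5.10 in PAE 1X and 5.46, 6.21, 6.71 and 6.06 in water. It differed by -1.28 (SE 0.27, adjusted p 0.132), the water arrays being the more scattered. Apoe, the lipoprotein ligand that macrophages also secrete, read 6.60, 5.47, 6.16 and 6.37 against 6.72, 7.02, 6.93 and 6.91, a difference of -0.74 (SE 0.19, adjusted p 0.378). PAE 1X array 2 was its lowest. The rest of the 15 lower genes were Gper1, a membrane oestrogen receptor (-0.85), Pabpc4, a poly(A)-binding protein (-0.54), Sh3bgrl3 (-0.76), Mapre2, a microtubule end-binding protein (-0.54), Ndufa11 of respiratory complex I (-0.51), Gde1 (-0.80), Cryab, a small heat shock protein (-0.70), and Mthfd1 of folate metabolism (-0.60). Their adjusted p ran from 0.162 to 0.384, and Gde1 alone of the 15 overlapped between groups. A dimmer Mapre2 probe gave -0.16 (adjusted p 0.851). Other probes gave -0.33 and -0.85 for Pabpc4 (0.783 and 0.645), and -0.48 and -0.66 for Gde1 (both 0.658).

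**Figure D2:**
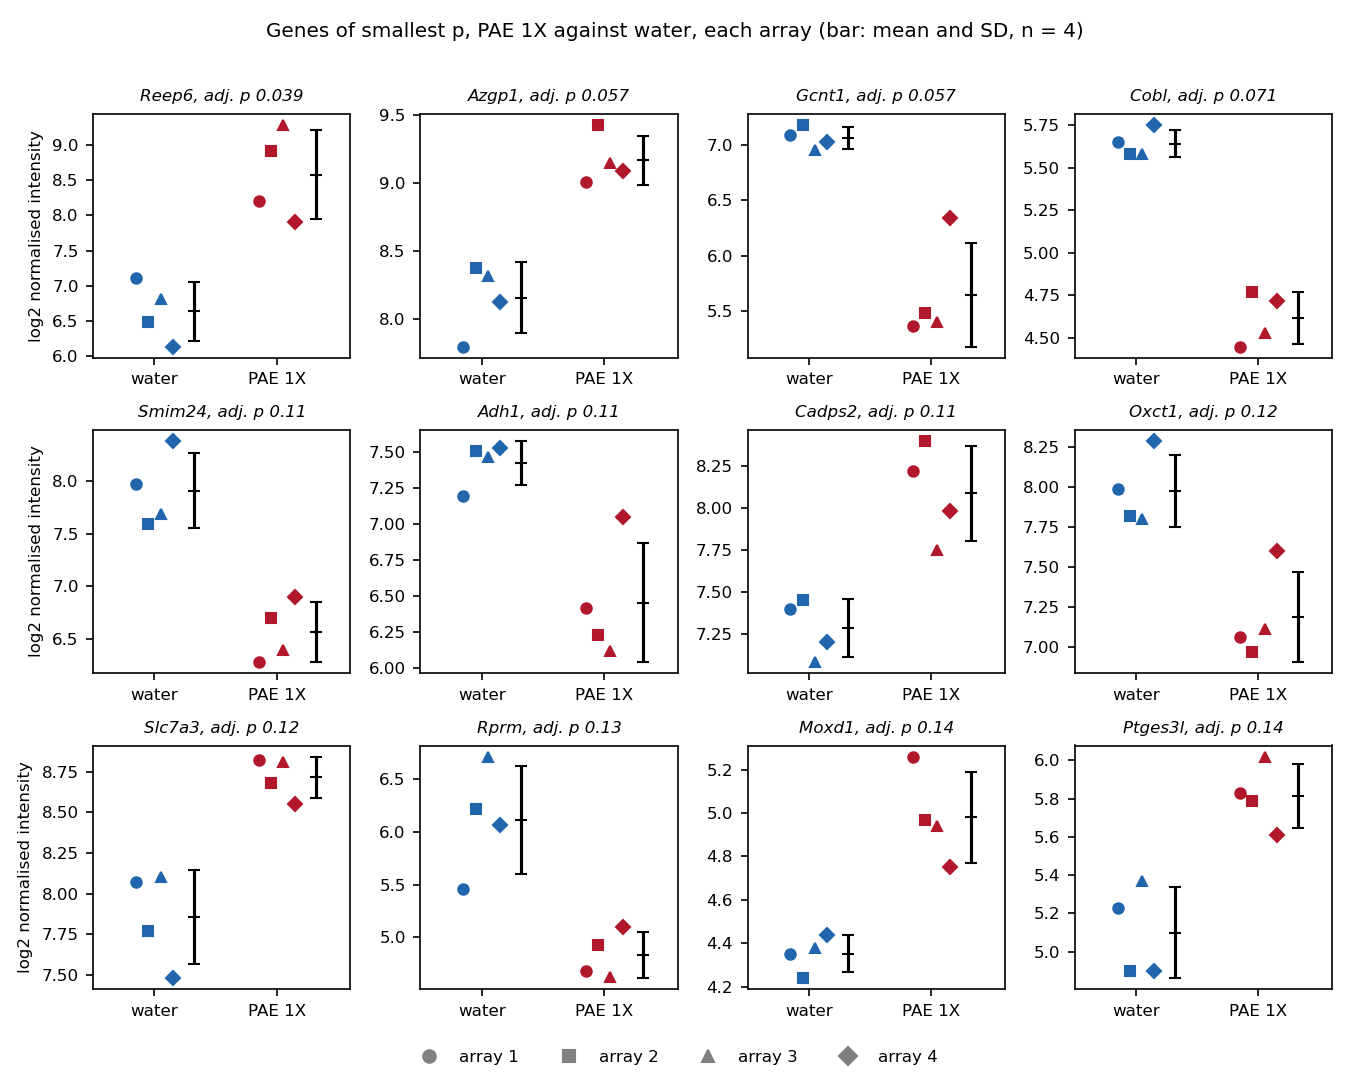
Log2 normalised intensity of the 12 genes of smallest p on each water array (blue) and PAE 1X array (red), with symbols for array numbers and bars for mean and SD (n = 4). All 12 separate the groups, and only Reep6 has an adjusted p below 0.05.

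Gene lists for pathways and cell types are described by counts and medians, beside the same over all 9164 genes, of which 5204 had a positive and 3960 a negative difference. No set test was run, and no list member other than Reep6 passed the adjusted threshold. The shares of genes with an unadjusted p under 0.05 over all genes were 4.08% higher and 2.76% lower, as above. Groups did not overlap in 2.41% of all genes on the higher side and in 1.64% on the lower.

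**Figure D3:**
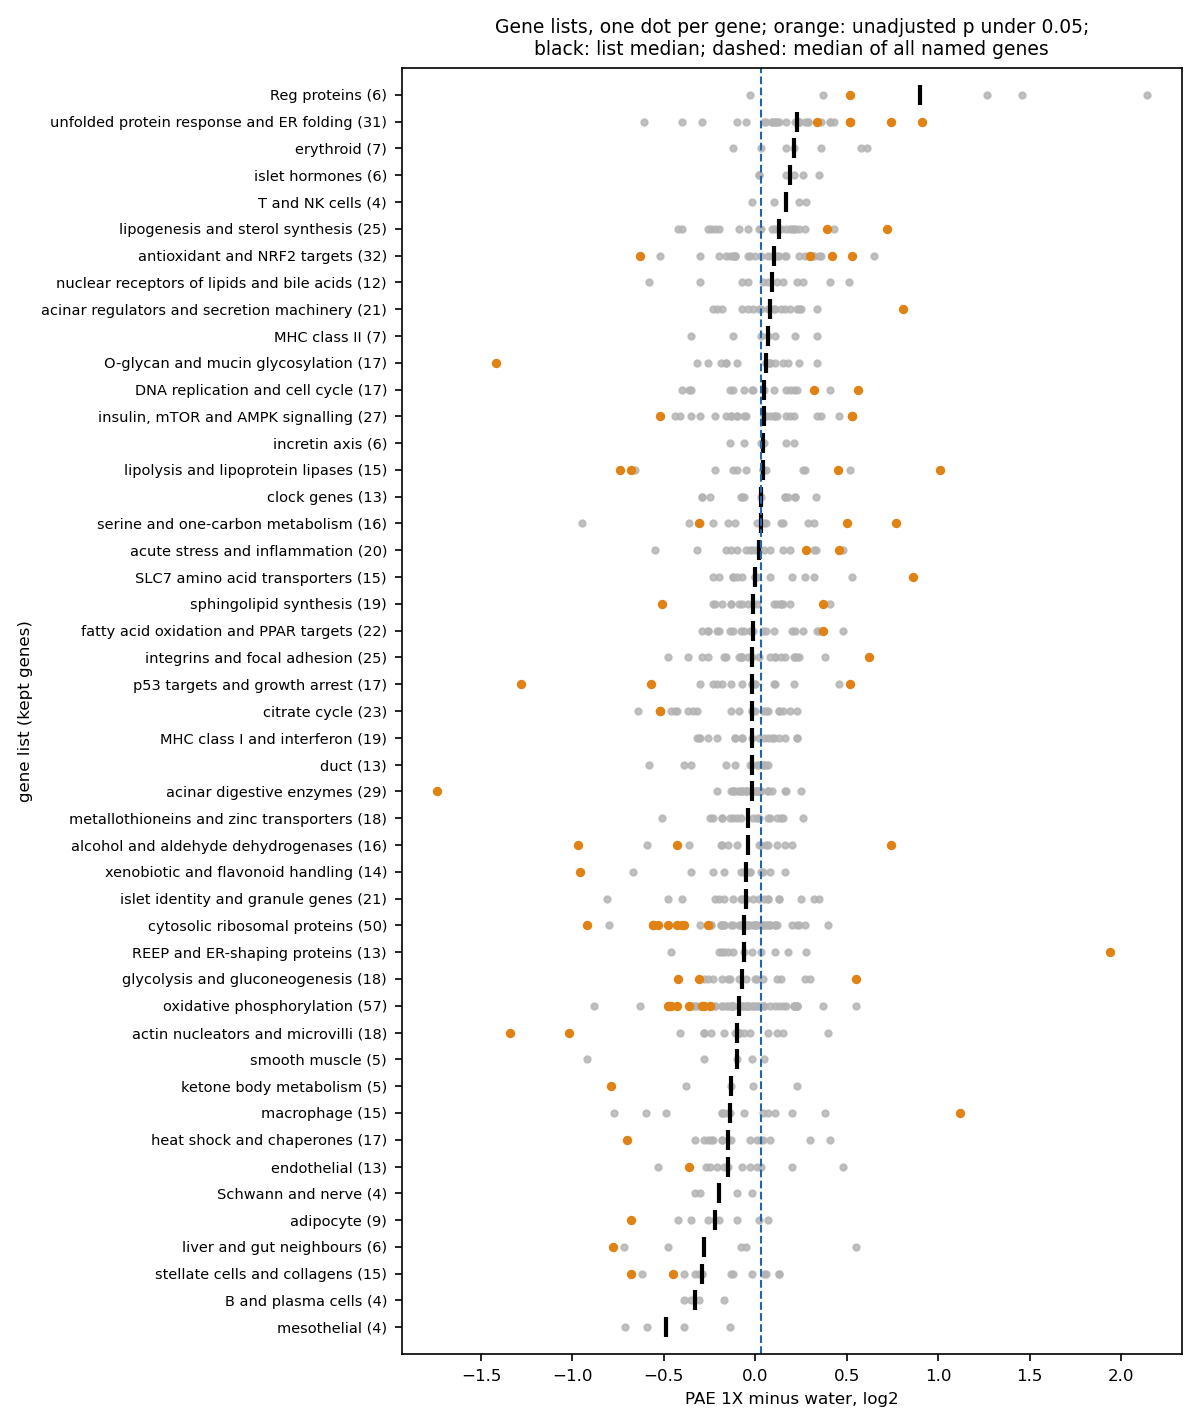
Difference between PAE 1X and water (log2) for every kept gene of each list, with the number of genes in brackets, the list median in black, the median of all genes dashed at 0.03 and genes with an unadjusted p under 0.05 in orange. Reg proteins have the highest median, 0.90, and mesothelial markers the lowest, -0.49.

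Genes of protein folding in the ER were mostly on the higher side. When unfolded protein builds up in the ER, the sensors of the unfolded protein response switch on chaperones, disulphide-forming enzymes and the machinery that sends misfolded protein out for degradation, and the acinar cell relies on it for its large output. A well-known DNA motif of such genes is the ER stress response element, CCAAT followed by 9 bases of any kind and then CCACG. It was searched on both strands in the 250 bases before the transcription start. It was present for 9 of 29 list genes with a promoter sequence (31%) and for 35 of 27025 genes in the whole promoter table (0.13%). A match describes the letters of a window and says nothing of binding in these mice.

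The promoters of Derl3 and Dnajc3, with the larger differences among matching genes named here, and of Hspa5 and Creld2, 2 well-known targets with differences near 0, show the element in capitals, on the plus strand of GRCm38.p6 as RefSeq gives it. In Derl3 and Creld2 the element is read from the opposite strand.
Derl3, chr10:75893148-75893397: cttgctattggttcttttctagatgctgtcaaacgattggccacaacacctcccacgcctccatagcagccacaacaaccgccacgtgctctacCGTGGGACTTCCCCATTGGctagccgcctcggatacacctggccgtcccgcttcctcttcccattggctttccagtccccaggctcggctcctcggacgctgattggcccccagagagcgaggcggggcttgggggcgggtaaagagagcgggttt
Dnajc3, chr14:118937682-118937931: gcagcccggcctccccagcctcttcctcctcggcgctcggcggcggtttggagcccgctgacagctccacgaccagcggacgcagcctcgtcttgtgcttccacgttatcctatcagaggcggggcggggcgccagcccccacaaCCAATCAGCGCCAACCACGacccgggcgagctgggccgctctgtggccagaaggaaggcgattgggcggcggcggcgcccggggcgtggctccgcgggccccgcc
Hspa5, chr2:34771840-34772089: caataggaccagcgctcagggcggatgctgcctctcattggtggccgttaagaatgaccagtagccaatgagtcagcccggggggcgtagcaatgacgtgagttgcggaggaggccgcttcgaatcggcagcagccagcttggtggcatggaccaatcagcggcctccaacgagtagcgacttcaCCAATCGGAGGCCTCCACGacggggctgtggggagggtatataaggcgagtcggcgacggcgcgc
Creld2, chr15:88819396-88819645: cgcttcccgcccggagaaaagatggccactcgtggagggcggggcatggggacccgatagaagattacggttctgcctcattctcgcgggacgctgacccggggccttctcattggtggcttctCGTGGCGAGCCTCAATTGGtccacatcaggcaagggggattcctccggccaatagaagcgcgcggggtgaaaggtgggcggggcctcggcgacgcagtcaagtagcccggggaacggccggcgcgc

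Of 31 kept genes of the unfolded protein response and ER folding, 26 had a positive and 5 a negative difference between PAE 1X and water, with a median of 0.23. An unadjusted p under 0.05 was reached by 5, all of them higher, which is 16.1% of the list. With median scaling 28 were positive (median 0.39) and 8 (25.8%) were at that level, against 11.3% of all genes. The median over all genes was then 0.16, and 6917 of 9164 were positive. Relative to the median of all genes, the list median was at 0.20 in the reported fit and at 0.23 under median scaling. Of the 9 genes with the element 7 had a positive difference (median 0.13), and of the 20 without it 17 did (median 0.22).

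Degradation factors were at the front of the list. Edem2, which trims sugar from misfolded glycoproteins, read 11.87, 12.39, 11.63 and 11.77 in PAE 1X and 11.37, 11.51, 11.25 and 11.46 in water, a difference of 0.52 (SE 0.15, adjusted p 0.425) without overlap. Its other 3 probes gave 0.21, -0.31 and -1.03. On the last, PAE 1X array 2 was at 5.02 and the other 7 arrays between 7.72 and 9.44.

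Derl3, a channel component for export of misfolded protein from the ER and abundant in secretory cells, read 8.73, 8.33, 8.80 and 7.88 against 7.64, 8.04, 7.52 and 7.58. PAE 1X array 4 fell within the water range, and the difference was 0.74 (SE 0.25, adjusted p 0.634). Its relative Derl2 differed by 0.52 and, with a second probe, by 0.73 (adjusted p 0.764 and 0.531). P4hb, the main protein disulphide isomerase, differed by 0.34 (adjusted p 0.727). Trib3, a stress-induced pseudokinase, read 5.81, 8.16, 6.19 and 7.27 against 5.65, 6.06, 5.68 and 6.40, a difference of 0.91 (SE 0.41, adjusted p 0.745) to which arrays 2 and 4 gave most. It was 0.48 without array 2. Dimmer Trib3 probes, detected on 2 or fewer arrays of each group, gave 0.08 and -0.11.

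Hspa5 and Creld2 did not line up by group. Hspa5, the chief ER chaperone BiP, was measured by a dim probe, detected on 2 PAE 1X and 3 water arrays, and differed by 0.09 (SE 0.36, adjusted p 0.966). Creld2 read 11.78, 8.06, 10.89 and 9.29 in PAE 1X and 10, 10.94, 9.56 and 9.16 in water, with PAE 1X arrays 1 and 2 at opposite ends, for a difference of 0.09 (SE 0.61, adjusted p 0.979). Dnajc3, a co-chaperone of BiP, differed by 0.41 (SE 0.20, adjusted p 0.776), and by 0.26 without PAE 1X array 1. All 4 PAE 1X arrays were above its water mean. Derl2, Dnajc3, Hspa5 and Creld2 were named after their values were seen, and the other chaperones of the list are not described singly.

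Taken array by array, the mean difference of the 31 genes from the water mean was 0.49, -0.17, 0.41 and 0.06 on PAE 1X arrays 1 to 4 and -0.01, 0.28, -0.13 and -0.14 on the water arrays. The groups overlapped, with PAE 1X array 2 the lowest of all 8. Without that array 29 of 31 genes had a positive difference and the median was 0.29, but 2 rather than 5 reached an unadjusted p under 0.05. Those are 6.45% of the list, against 2.35% of all genes higher at that level in the same fit. Beside the other groups, the same list had 24 positive genes and a median of 0.20 for PAE 1X against PAE 0.1X, and 13 positive and -0.01 against PAE 3X. The list medians against water, which share the water arrays, were 0.23 for PAE 1X, 0.24 for PAE 3X, 0.01 for PAE 0.1X, 0.13 for AFFB and -0.08 for sitagliptin.

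**Figure D4:**
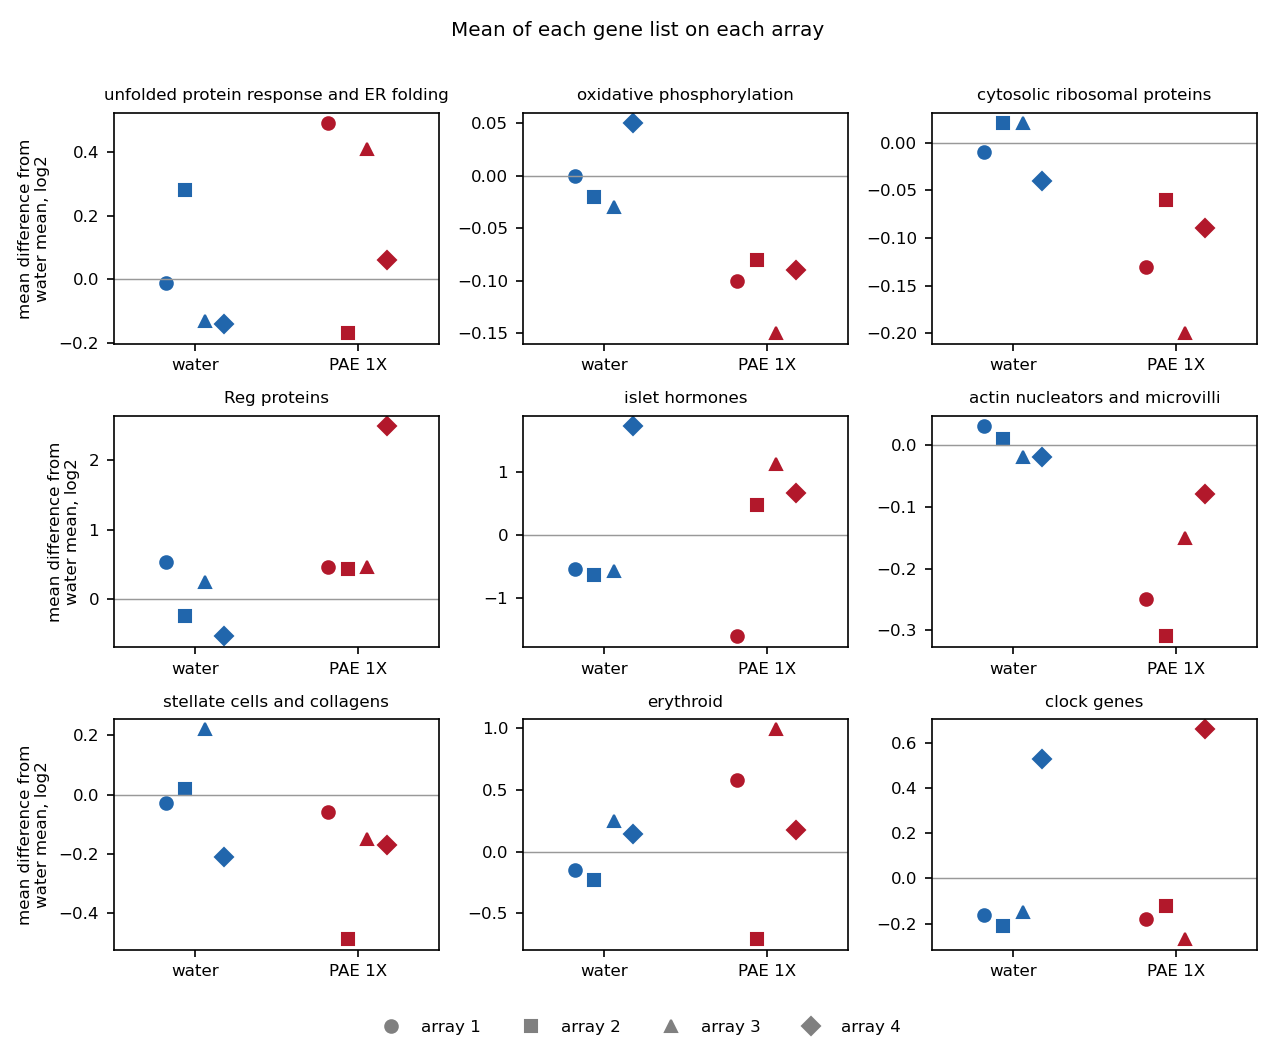
Mean difference of 9 gene lists from the water mean (log2) on each water array (blue) and PAE 1X array (red), with symbols for array numbers. The means of oxidative phosphorylation, ribosomal protein and actin genes separate the groups by small amounts. Those of ER folding, Reg, islet hormone, stellate, erythroid and clock genes overlap. The actin list holds Cobl and Smim24, both picked by their p in these same arrays. Its separation is therefore not a result apart from theirs. On PAE 1X array 3 the actin median was 0, with 9 genes above their water mean and 9 below. On PAE 1X array 2 the ribosomal median was 0.15, with 33 genes above and 17 below.

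Genes of the respiratory chain were mostly on the lower side, by small amounts. Of 57 kept subunit genes 39 had a negative and 18 a positive difference, with a median of -0.09, and 8 reached an unadjusted p under 0.05, all lower (14%). In 9 of the 57 the groups did not overlap, all lower, against 1.64% of all genes on that side. The mean over the list was -0.10, -0.08, -0.15 and -0.09 on the PAE 1X arrays and 0, -0.02, -0.03 and 0.05 on the water arrays, relative to the water mean, so the 4 PAE 1X arrays were the lowest. Without array 2, 46 of 57 were negative, with a median of -0.11, and 5 (8.77%) were at that level, against 1.68% of all genes.

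That direction depends on how arrays are scaled. Under median scaling, which moved the median over all genes as above, 42 of the 57 subunit genes had a positive difference, with a median of 0.18. Relative to the median of all genes, the list median was at -0.12 in the first case and at 0.02 in the second.

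Ndufs7, an iron-sulphur subunit of complex I, read 9.89, 10.02, 9.86 and 9.89 against 10.33, 10.14, 10.27 and 10.36 in water, a difference of -0.36 (SE 0.11, adjusted p 0.425). Cyc1, cytochrome c1 of complex III, read 7.74, 7.86, 8.10 and 8.20 against 8.32, 8.44, 8.36 and 8.62, a difference of -0.46 (SE 0.14, adjusted p 0.427). Both kept the groups apart, as did Atp5o of the ATP synthase (-0.29), while Uqcrc2 of complex III overlapped (-0.48). Median scaling brought Ndufs7, Cyc1 and Uqcrc2 to -0.08, -0.17 and -0.22. Cox6a2, given above, ran the other way.

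Cytosolic ribosomal protein genes were also mostly on the lower side. Of 50 kept, 32 had a negative difference and 9 reached an unadjusted p under 0.05, all lower (18%), with a median of -0.06. The groups did not overlap, on the lower side, in 3 of the 50, against 1.64% of all genes. The list mean was -0.13, -0.06, -0.20 and -0.09 on the PAE 1X arrays and between -0.04 and 0.02 on the water arrays. On PAE 1X array 2, however, 33 of the 50 genes were above their water mean and 17 below, with a median of 0.15. Without array 2, 42 were negative, with a median of -0.13, but 4 (8%) rather than 9 were at that level. Over all genes 1.68% were lower at that level in the same fit. Under median scaling 32 of the 50 had a positive difference, and the median was 0.02, against 0.16 over all genes. Relative to the median of all genes, the list median was at -0.09 in the reported fit and at -0.14 under median scaling.

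Rps9, of the small subunit, read 12.53, 11.90, 12.47 and 12.59 against 12.77, 12.84, 12.78 and 12.71, a difference of -0.40 (SE 0.14, adjusted p 0.645), with array 2 the lowest and -0.25 without it. Rps7 (-0.53), Rps3a1 (-0.56) and Rpl13a of the large subunit (-0.43) had adjusted p between 0.645 and 0.692. Rps7 and Rps3a1 were at -0.30 and -0.36 without array 2. Ribosomal protein genes have many near-identical copies in the genome, and a probe may read several.

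Reg proteins, secreted lectins that acinar cells make in bulk when the pancreas is inflamed, had the highest median of the lists, 0.90 over 6 genes, 5 of them positive. Reg3a read 8.75, 9.22, 8.85 and 11.99 in PAE 1X and 8.68, 6.86, 8.24 and 6.46 in water. PAE 1X array 4 was far above the rest, and the difference of 2.14 had an SE of 1.15 (adjusted p 0.787), although the groups did not overlap. Reg3b behaved alike, with 12.42 on that array and 8.94 to 9.37 on the other 3, against 8.28 to 8.87 in water, a difference of 1.27 (SE 1.10, adjusted p 0.819). Without PAE 1X array 4 the differences were 1.38 for Reg3a, 0.45 for Reg3b and 0.68 for Reg2.

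Reg2 read 11.21, 10.27, 10.67 and 13.82 against 11.46, 9.30, 10.75 and 8.62, for 1.46 (SE 1.21, adjusted p 0.813), and Reg3d differed by 0.52 (SE 0.24, adjusted p 0.745). Reg1, near the top of the scale at 14.17 to 14.42 on all 8 arrays, differed by -0.03. Without PAE 1X array 4 and water array 4, the list median came to 0.27. Reg genes are close relatives, and cross-reading between their probes was not tested.

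Digestive enzymes, the main product of the tissue, lay on both sides of no difference, as 12 of 29 had a positive and 17 a negative difference, with a median of -0.02, or 7 and 22 (-0.07) under median scaling. Cpa1, a carboxypeptidase, differed by -0.07 (SE 0.12), Gp2 of the zymogen granule membrane by -0.21 (SE 0.11) and Cuzd1 of the same granules by 0.25 (SE 0.13), with adjusted p of 0.907, 0.786 and 0.78. The exception in size was Amy1, an amylase, at 8.38, 5.05, 9.11 and 9.38 against 9.55, 9.98, 9.57 and 9.80 (-1.74, SE 0.68, adjusted p 0.692). Array 2 was far below the rest there and the difference was -0.77 without it, and amylase probes may read near-identical copies.

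Islet hormone genes followed single arrays. All 6 kept genes had a positive difference, with a median of 0.19. It was 0.67 without PAE 1X array 4 and water array 4, and 0.05 without PAE 1X array 2. Of 21 islet identity and granule genes 9 were positive (median -0.05), or 17 (0.23) without PAE 1X array 4 and water array 4. Ins2, an insulin gene, read 10.73, 13.48, 14.03 and 13.47 in PAE 1X and 12.44, 12.61, 12.42 and 14.15 in water, a difference of 0.02 (SE 0.66). Gcg, which encodes glucagon and the incretin GLP-1, read 8.01, 10.41, 11.85 and 11.51 against 9.56, 9.61, 9.26 and 12.68, a difference of 0.17 (SE 0.83). Both genes were low on PAE 1X array 1 and high on water array 4, and islet content was not measured apart from such genes. The dipeptidyl peptidases Dpp4, which inactivates incretins, and Dpp8 differed by -0.06 (SE 0.19) and 0.21 (SE 0.14), with adjusted p of 0.954 and 0.794.

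Among lipid genes Lpl, the lipase that frees fatty acids from lipoproteins, read 8.48, 7.68, 7.84 and 7.58 in PAE 1X against 8.23, 8.83, 8.84 and 8.40, a difference of -0.68 (SE 0.19, adjusted p 0.396). Array 1 lay within the water range. Gpihbp1, which anchors Lpl to capillaries, differed by 0.45 (adjusted p 0.76), or 0.23 without PAE 1X array 4. In the lipogenesis and sterol list 17 of 25 had a positive difference, with a median of 0.13, led by Mlxipl, the carbohydrate-sensing factor ChREBP (0.72, adjusted p 0.692, no overlap), and Fads1, a fatty acid desaturase (0.39, 0.753). A dimmer Mlxipl probe, detected on 2 PAE 1X arrays and 1 water array, gave -0.02.

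For genes against oxidative stress the counts depended on the scaling, as they did over all genes. Of 32 kept, 19 had a positive and 13 a negative difference, with 3 higher (9.38%) and 1 lower (3.12%) at an unadjusted p under 0.05. With median scaling 28 were positive and 4 negative. At that level 8 were higher (25%, against 11.3% of all genes) and 0 lower. Relative to the median of all genes, the list median was at 0.07 in the reported fit and at 0.09 under median scaling. Prdx4, the peroxidase of the ER, read 12.96, 12.92, 12.94 and 12.80 against 12.41, 12.54, 12.41 and 12.58, which kept the groups well apart (0.42, SE 0.11, adjusted p 0.381). Gpx1, the cytosolic glutathione peroxidase, read 10.03, 9.53, 10.26 and 10.34 against 10.50, 10.74, 10.58 and 10.87, apart in the other direction (-0.63, SE 0.17, adjusted p 0.384). Keap1, the repressor of NRF2, differed by 0.30, and Txnrd2, the mitochondrial thioredoxin reductase, by 0.53, or 0.30 without PAE 1X array 2.

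Elsewhere in metabolism single enzymes had differences in both directions, and none passed. Rdh11, a retinal reductase, differed by 0.74 (SE 0.20, adjusted p 0.384, no overlap), while Aldh1l2, a mitochondrial folate enzyme, differed by -0.43 (SE 0.17, adjusted p 0.692, no overlap). A dimmer Rdh11 probe gave 0.52 (adjusted p 0.658), and dimmer Aldh1l2 probes gave -0.34 and 0.17 (0.813 and 0.911). Fbp2, the muscle form of fructose bisphosphatase, differed by 0.55 (SE 0.16, adjusted p 0.42, no overlap). Fbp1, the liver form, was detected on no PAE 1X array and 3 water arrays, at least 1.09-fold lower (adjusted p 0.531).

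Mat1a, which makes S-adenosylmethionine, read 10.23, 10.98, 10.46 and 10.60 against 9.90, 9.53, 9.87 and 9.91, a difference of 0.77 (SE 0.23, adjusted p 0.427) without overlap. Shmt2, the mitochondrial serine hydroxymethyltransferase, differed by 0.50 (adjusted p 0.692), and Fh1, the citrate cycle fumarase, by -0.52 (adjusted p 0.645), or -0.31 without PAE 1X array 2. The brighter probe of Mthfd1 gave -0.31 (adjusted p 0.753). A dimmer Shmt2 probe, detected on 2 PAE 1X arrays and no water array, gave 0.16 (adjusted p 0.863).

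Marker genes of other cells in the tissue had differences in both directions, and none passed. Several of these lists turned on single arrays. Of 15 stellate cell and collagen genes 11 had a negative difference, with a median of -0.29, and the list mean ranged from 5.37 to 5.81 in PAE 1X and from 5.65 to 6.08 in water. Vim, an intermediate filament of mesenchymal cells, differed by -0.68 (SE 0.27, adjusted p 0.692) and Lum, a collagen-binding proteoglycan, by -0.45 (SE 0.21, 0.745). Without PAE 1X array 2 the list had 10 of 15 negative and a median of -0.14, with Vim at -0.45. The median was -0.10 under median scaling.

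All 4 mesothelial genes (median -0.49, with Upk3b at -0.71, or -0.47 without water array 3) and all 4 B and plasma cell genes (-0.33) had negative differences. Of 9 adipocyte genes 7 did (-0.22), of 15 macrophage genes 9 (-0.14) and of 13 endothelial genes 9 (-0.15). Without PAE 1X array 2, however, 8 of the 15 macrophage genes were positive (median 0) and 8 of the 13 endothelial genes (median 0.14). Of 4 T and NK cell genes 3 had a positive difference (median 0.17). List means of the mesothelial, B cell, adipocyte, macrophage and endothelial genes overlapped between the groups. They ran from 4.50 to 5.52 against 5.01 to 5.94 for mesothelial, 5.10 to 5.76 against 5.28 to 6.26 for B cell and 4.78 to 6.00 against 5.01 to 6.21 for adipocyte genes.

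Macrophage genes ran from 5.10 to 6.13 against 5.37 to 5.78, and endothelial genes from 5.03 to 5.86 against 5.49 to 5.72. Of the adipocyte genes 2, and of the endothelial genes 1, were detected on no PAE 1X array. Erythroid genes went the other way, with 6 of 7 positive and a median of 0.21, their list means spanning 6.69 to 8.39 in PAE 1X and 7.17 to 7.64 in water. Their median was 0.82 without PAE 1X array 2, with 2 of 7 higher at an unadjusted p under 0.05, against 2.35% of all genes. Without that array, PAE 1X array 4 and water array 4 it was 1.12. In that fit, chosen after seeing the data and left with PAE 1X arrays 1 and 3, 4 of 7 were at that level. The share over all genes was 2.59%. Hba-a1, an alpha globin with a near-identical copy, differed by 0.61 (SE 0.44, adjusted p 0.794), by 0.97 without PAE 1X array 2 and by 0.26 without array 3. The part of these cell markers in the differences above was not tested beyond the fits with list means as covariates, given with the processing alternatives.

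Some genes crossed the detection limit between the groups. On all 4 PAE 1X arrays and no water array 20 probes were detected, 17 of them with 1 symbol, and 7 the other way round, 6 with 1 symbol. Besides Moxd1, the largest bounds on the higher side were Arhgef25 (at least 1.43-fold higher, adjusted p 0.397), Ahdc1 (1.26-fold, 0.425), the sphingosine phosphate receptor S1pr2 (1.26-fold, 0.475), the protein kinase A inhibitor Pkig (1.26-fold, 0.58) and Nt5dc2 (1.22-fold, 0.535).

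On the lower side they were Pgf, the placental growth factor (at least 1.20-fold lower, adjusted p 0.384), Shisa4 (1.17-fold, 0.479), Tnpo2 (1.12-fold, 0.692), Vps72 (1.09-fold, 0.715), Rps6ka3 (1.07-fold, 0.744) and Nfib (1.07-fold, 0.787). Brighter probes of Tnpo2 and Nfib were detected on all 8 arrays, and the brightest differed by 0.21 and -0.15. A brighter S1pr2 probe, also detected on all 8 arrays, differed by 0.24. The other Shisa4 probe was detected on 2 PAE 1X arrays and no water array.

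Against the neighbouring doses PAE 1X had no call. None of 15328 probes passed against PAE 0.1X (0%), where 795 had an unadjusted p under 0.05 and the adjusted p went no lower than 0.333. Likewise none passed against PAE 3X (0%), where 321 were at that level and the lowest adjusted p rounded to 1. The 3 genes of smallest p against PAE 0.1X were Angptl4, an inhibitor of Lpl and a target of the fatty acid sensors called PPARs (-1.97, SE 0.40), Acot1, a cytosolic acyl-CoA thioesterase (-2.88, SE 0.61), and Slc25a35, a mitochondrial carrier (1.23, SE 0.26), all with an adjusted p of 0.333.

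For Angptl4 and Acot1 the PAE 1X mean was near that of water. Mean Angptl4 was 5.06 in water, 7.08, 5.11 and 5.19 at 0.1X, 1X and 3X, 6.05 with AFFB and 5.02 with sitagliptin. Mean Acot1 was 5.87, 8.70, 5.82, 5.51, 7.93 and 5.42 in the same order, and its probe may also read close relatives. Of 22 kept genes that burn fatty acids or answer to PPARs, 18 were lower in PAE 1X than in PAE 0.1X (median -0.31). An unadjusted p under 0.05 was reached by 9 of them. Over all probes of that contrast 5.19% were at that level, 448 higher and 347 lower, and the median was 0.02. Against water 10 of the 22 had a positive difference in PAE 1X (median -0.01), 19 in PAE 0.1X (0.37) and 21 in AFFB (0.33), all with the same water arrays. The medians over all probes in these 3 contrasts were 0.02, 0 and 0.

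Against PAE 3X the smallest p belonged to Mcm6, a helicase subunit of DNA replication (-0.82), Mgp, a matrix protein that prevents calcification (-0.84), and Rab34, a small GTPase (-0.55), each with an adjusted p of 1. For the leading genes of the comparison with water, the difference between PAE 1X and PAE 3X was 0.07 for Azgp1 (95% interval -0.30 to 0.43), -0.18 for Gcnt1 (-0.71 to 0.35), -0.03 for Cobl (-0.43 to 0.37) and -0.13 for Slc7a3 (-0.50 to 0.25). These intervals leave room for differences of up to 0.71 in size. The differences of PAE 3X from water were 0.95 for Azgp1 (adjusted p 0.0413), -1.24 for Gcnt1 (0.0679), -1.0 for Cobl (0.0512), 0.99 for Slc7a3 (0.0361) and 1.39 for Slamf9 (0.0361), again with the same water arrays.

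**Figure D5:**
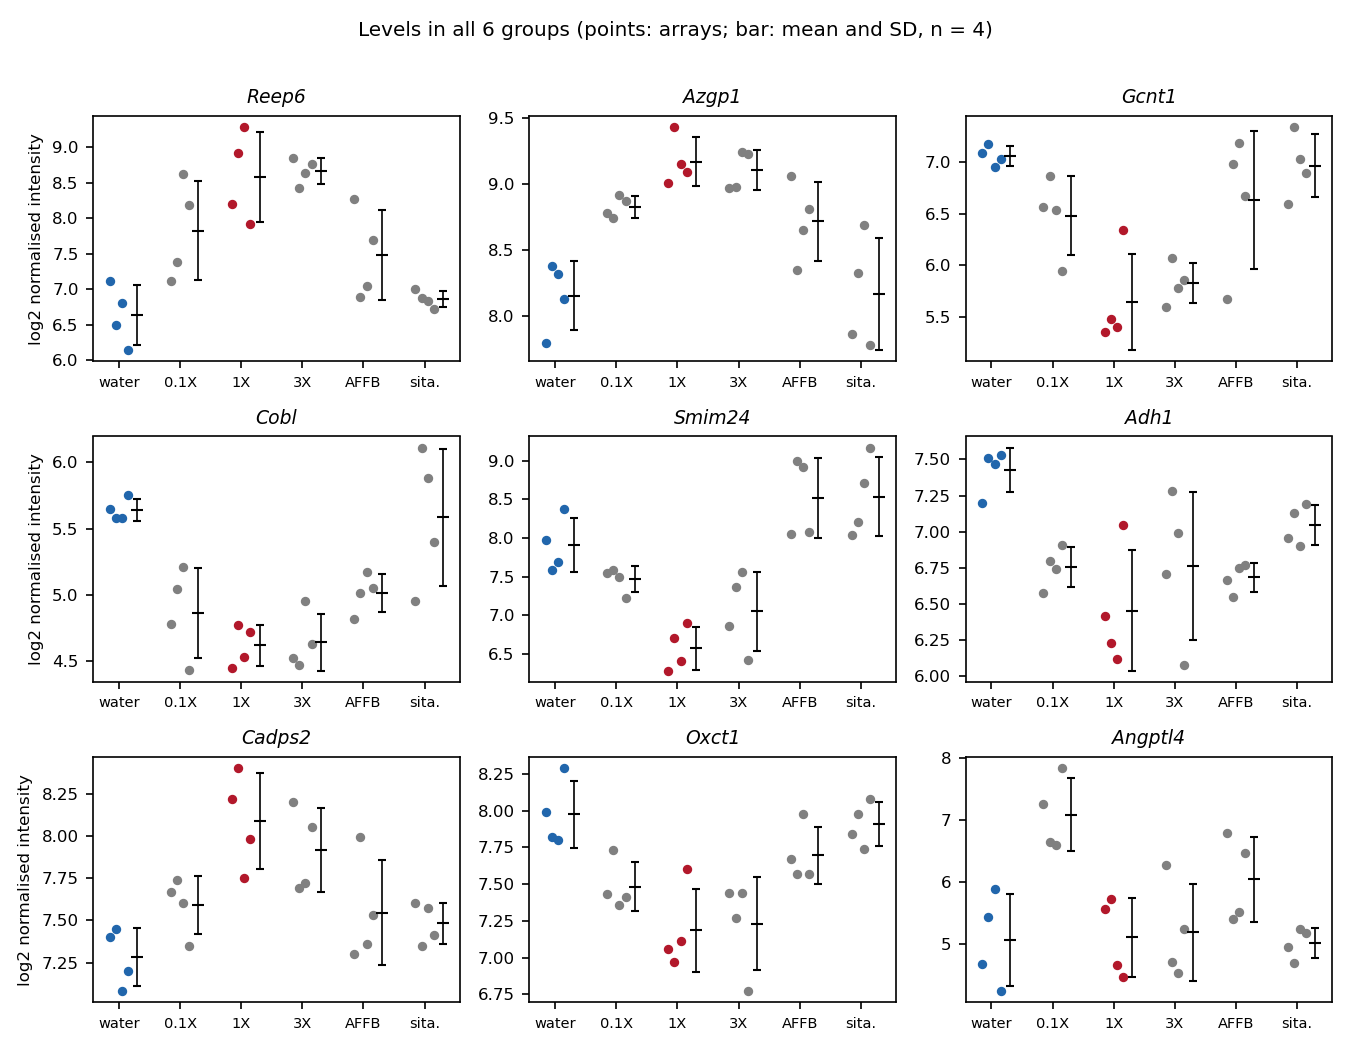
Log2 normalised intensity of 9 genes on each array of the 6 groups (water blue, PAE 1X red, others grey; bars, mean and SD, n = 4). Reep6, Azgp1 and Gcnt1 lie in overlapping ranges in PAE 1X and PAE 3X, Smim24 is high in AFFB, and Angptl4 is highest in PAE 0.1X and near the water mean in PAE 1X.

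The extract was also set against the whole beverage at a near equal dose, 9.0 for PAE 1X and 8.4 mg per kg per day for AFFB. One probe of 15328 passed (0.00652%), with 676 at an unadjusted p under 0.05. It was Smim24, at 6.57 ± 0.28 in PAE 1X and 8.51 ± 0.52 in AFFB (SD, n = 4 each). Smim24 thus fell by 1.94 on the log2 scale in PAE 1X relative to AFFB (SE 0.27, adjusted p 0.00222), and the groups did not overlap. Its means were 7.91 in water, 7.46 at 0.1X, 7.05 at 3X and 8.53 with sitagliptin, so that PAE 1X was the lowest and AFFB and sitagliptin the highest of the 6 groups. In a fit of the 2 groups alone the adjusted p was 0.135.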

How the data were processed

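The arrays were single-colour Illumina bead arrays probed with biotin-labelled RNA, per the labels. A deposited table of bead signals holds a linear intensity per probe and array, neither background-corrected nor normalised between arrays, as its values show, and a detection p-value beside each, per the file headers. The deposited log2 table was made by the authors, with R 3.1.2 and limma 3.22.1 named in the submitters' processing notes. It matched the values computed here (99th percentile of the absolute difference 0.00194, largest 0.104, every array median 4.37).

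Signals were corrected and quantile-normalised by the neqc function (R 4.3.3, limma 3.58.1, offset 16, background inferred from detection p). Median signal per array was 81.3 to 98.7, and between 24.0% and 31.1% of all probes had detectable signal. The number of arrays, 4 a group, limits the precision. Of 15328 kept probes 13086 had 1 gene symbol, 8 several and 2234 none, per GEO's platform annotation, and only the first kind is named. One limma fit held the means of all 6 groups over 24 arrays, without covariates. It was moderated with eBayes and two-sided, with Benjamini-Hochberg adjustment over kept probes within each comparison and a call at an adjusted p under 0.05. The fit was tested on simulated data.

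Members of 47 gene lists, the tests and the rule for named genes were chosen with earlier results of these data known. The rule takes called genes, the 15 of smallest p in each direction with no PAE 1X array across the mean of water, up to 4 members of smallest p per list, a panel of well-known pancreas genes, the largest detection bounds, and the called or 3 leading genes of each dose contrast. A gene in a list is represented by its brightest probe. Promoters came from RefSeq (GRCm38.p6), and 29 of 31 kept ER folding genes matched. Replicate numbers were not used as pairs: deviations from group means of same-numbered arrays correlated at 0.03, -0.04, -0.06 and 0.31. Alternatives changed the background correction, scaling, probe filter, variance model, arrays or covariates.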

Additional observations from a re-analysis of the deposited data

Results flagged for a closer look

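Of 204 sets of 4 arrays (the named probes, in PAE 1X and in water), 14 had a highest or lowest array whose gap to the next, divided by the range, exceeded Dixon's 95% critical value. That is 6.86%, and chance flags about 1 in 20 groups.

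In PAE 1X, array 4 was high for Gcnt1 (ratio 0.884, at 6.34), Reg3a (0.854, at 11.99) and Reg3b (0.876, at 12.42). Array 2 was high for Slamf9 (0.902, at 6.96) and low for Ndufa11 (0.832, at 7.63). Array 1 was low for Ins2 (0.83, at 10.73) and high for Pgf (0.991, at 4.56, not detected).

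Among the water arrays, number 4 was high for Ins2 (0.894, at 14.15), Gcg (0.896, at 12.68), Dbp (0.862, at 11.02) and Mthfd1 (0.962, at 5.47) and low for Fads1 (0.889, at 8.99). Water array 1 was low for Adh1 (0.836, at 7.2), and water array 2 low for Mat1a (0.897, at 9.53).

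The effects of PAE 1X and of AFFB, each against the same water arrays, differed for Smim24 by -1.94 on the log2 scale (adjusted p 0.00222 in limma's test of PAE 1X against AFFB).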

How the results depend on the processing

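Of 4451 values of single genes other than Reep6 under alternatives, 4350 kept their direction and side of the threshold. Another 63 newly passed and 1 no longer passed. Of these gene results only Smim24 against AFFB had passed in the reported fit. Reep6 passed in 27 of the 45 settings, the reported one included. The count of 1 probe between PAE 1X and water was 0 without background correction, with an offset of 50, without a filter, with adipocyte and B cell covariates, without the 3 arrays far on the first principal component, and in a fit of the compared groups only, with 1004, 1012, 2254, 1281, 738 and 876 probes at an unadjusted p under 0.05. Reep6 then differed by 1.40, 1.64, 1.94, 1.74, 1.83 and 1.94 (adjusted p 0.0818, 0.074, 0.216, 0.0873, 0.128 and 0.153), and by 2.00 (0.0819) without the 5 arrays of high clock genes. The count was 3 with probes detected on 4 or on all of the 8 arrays, with an intensity trend and with a robust fit, 4 with cyclic loess, with the erythroid covariate and with the replicate block, 13 with a clock covariate and 14 with array weights. The block on replicate numbers, which do not pair the samples, gave Reep6 an adjusted p of 0.0467. In the fits chosen after seeing the data, the count was 5 without PAE 1X array 4 and water array 4, and 0 without these and PAE 1X array 2, the 3 marked arrays (595 at an unadjusted p under 0.05), with Reep6 at 1.94. Leaving out each array in turn gave counts of 0 to 8, the highest without PAE 1X array 4, and Reep6 differences of 1.70 to 2.16.

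Against AFFB the count was 4 with median scaling, 2 with cyclic loess, no filter, array weights, adipocyte and B cell covariates, without the 5 clock arrays or without the 3 marked arrays, 3 without the 3 far arrays, 0 in a fit of the compared groups only (Smim24 adjusted p 0.135) and 1 to 3 with an array left out. Against PAE 0.1X it was 0 to 1 with an array left out, and against PAE 3X 0 in each setting.

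Of 102 further gene results 7 changed sign somewhere, all with differences under 0.3 in size. Dpp4 was at 0.02 with median scaling, 0.07 without the far arrays and 0.06 without the 3 marked arrays. Ins2 was at -0.10 with array weights, -0.08 with the clock covariate, -0.41 with adipocyte and B cell covariates, -0.16 without the far arrays and -0.11 without the marked arrays. Gcg was at -0.04 and -0.43 with the clock and the adipocyte and B cell covariates. With the erythroid covariate Hspa5, Creld2 and Dbp were at -0.08, -0.20 and 0.16. With an array left out they ranged from -0.19 to 0.38, -0.50 to 0.74 and -1.45 to 0.64, Ins2 from -0.35 to 0.75, Gcg from -0.30 to 0.98, Dpp4 from -0.18 to 0.10 and Reg1 from -0.08 to 0. The causes of these shifts were not tested. Levels near the detection limit, such as those of Cobl, Hspa5 and the bounded genes, are the least certain.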
